A study of Mus musculus with 3 samples.

Results

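The imprinted genes described here were taken from a list of 55 mouse genes with established expression from 1 parental allele, of which 53 were found in the GENCODE annotation of the mm9 genome (NCBIM37) among 37273 genes on the chromosomes. A CTCFL peak was counted for a gene when the center of the peak lay between -2 kb and +1 kb of an annotated transcription start site (TSS), inside the gene body, or within 40 kb of a TSS. Imprinted genes on the same chromosome and under 1 Mb apart were joined into 21 domains. Of all 7436 CTCFL peaks, 30 met at least 1 of the criteria for at least 1 imprinted gene, which is 0.403% of the list, and 8 of these 30 were counted for more than 1 gene. Neighbouring genes in a domain shared peaks and are not independent observations.

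The peaks came from ChIP-seq in mouse embryonic stem (ES) cells that carried a V5- and GFP-tagged mouse CTCFL under a doxycycline-responsive promoter, with the activator rtTA expressed from the ROSA26 locus. How many clones contributed is not given in the sources used here. Transgenic cells grown with LIF on gelatin-coated plastic received doxycycline for 3 days, were sorted for GFP, and their chromatin was precipitated with a V5 antibody. A V5 precipitate of the same transgenic cells, without doxycycline and unsorted, served as the non-induced control, and CTCF itself was precipitated in a separate library with a CTCF antibody. There was 1 library per condition and no replicate, so no difference below has a replicate check. ES cells served as a host for an introduced protein that is normally found in male germ cells, and the peak list holds no expression values against which the cell type could be checked. Binding of CTCF was not analysed here, so peaks shared with CTCF were not separated from the others. The list gives a start and an end for each peak, with no height or read number, and the depth behind a peak is unknown. It holds more intervals than the number of CTCFL sites counted in the study, so it may be a wider call, and every share, density and distance below refers to the list as deposited. Reads from the maternal and the paternal chromosome were not separated.

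Imprinted genes are expressed from only the maternal or only the paternal chromosome, and they lie in clusters governed by imprinting control regions that are methylated on 1 parental allele. CTCF is a zinc finger protein that binds the unmethylated maternal control region upstream of H19 and blocks the Igf2 promoters from enhancers on the other side. CTCFL, also called BORIS (Brother Of the Regulator of Imprinted Sites), is its testis paralog, with a closely similar set of zinc fingers, and it owes its name to this connection.

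The peaks are introduced here by the DNA letters at their best match to the consensus read from the sequence logo of the study. The consensus has 14 positions, of which 10 are fixed, and is written CCNNNAGGNGGCGC. In each line below, capitals mark the matched 14 bases, 8 bases of mm9 are shown in lower case on either side, and the sequence is read 5′ to 3′ on the strand of the match. The following 5 sites are shown because their peaks held a match without any mismatch, the best found at imprinted genes. They lie upstream of Blcap at chr2:157430939-157430968 (plus strand), in Cd81 at chr7:150239061-150239090 (minus strand), in an intron of Slc22a18 at chr7:150666597-150666626 (plus strand), upstream of Dlk1 at chr12:110676109-110676138 (plus strand) and upstream of Kcnk9 at chr15:72379993-72380022 (plus strand).
Blcap upstream: accgctctCCACCAGGGGGCGCcaacgctc
Cd81 promoter: gcacggagCCCACAGGTGGCGCcgcaactt
Slc22a18 intron: agggagttCCACCAGGGGGCGCtacagtga
Dlk1 upstream: gagacccgCCGGCAGGGGGCGCagccagct
Kcnk9 upstream: tctcggcgCCACCAGGGGGCGCtagactcc

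Of these 5 peaks, only that of Cd81 lay in the promoter interval of an imprinted gene. Next come 4 sites with 1 mismatch, shown because their peaks lay in the promoter or the body of an imprinted gene close to its start. Substitutions are given as the consensus base, the position (1 is the leftmost letter of the consensus) and the base found. The site of Mest at chr6:30687117-30687146 (minus strand) carried A6C, that of Peg3 at chr7:6680171-6680200 (minus strand) C12G, that of Ube3a at chr7:66484351-66484380 (minus strand) C1G, and that of Ascl2 at chr7:150154158-150154187 (minus strand) A6C.
Mest promoter: caggctggCCCAGCGGGGGCGCtgcaggcc
Peg3 intron: ggaggcggCCCGAAGGAGGGGCtctctggt
Ube3a promoter: gaagagaaGCAGAAGGAGGCGCcaccgtca
Ascl2 exon: agcacgtgCCGCACGGCGGCGCcaacaaga

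The remaining promoter peaks shown here matched less well, with 2 substitutions in the lines for H13 (A6T and C14G), Gnas (C1A and G7A), Copg2 (A6C and C14T), Grb10 (A6C and G11T), the peak shared by Commd1 and Zrsr1 (G8C and C12G) and Dio3 (G11T and C12A), and with 3 for Asb4 (G8A, G11A and C14G). They are printed to show how far promoter peaks departed from the consensus. A match with up to 2 mismatches was also present in 22.9% of 14872 windows of the same lengths placed 2 kb to either side of the peaks, so these letters mark the best match and not an established site. Their positions are chr2:152495115-152495144 for H13 (minus strand), chr2:174121770-174121799 for Gnas (plus strand), chr6:30846899-30846928 for Copg2 (plus strand), chr11:11925860-11925889 for Grb10 (plus strand), chr11:22871890-22871919 for Commd1 and Zrsr1 (minus strand), chr12:111516389-111516418 for Dio3 (minus strand) and chr6:5332751-5332780 for Asb4 (plus strand).
H13 promoter: cccgatcgCCCTCTGGTGGCGGtgagggag
Gnas promoter: accccggcACCGCAAGGGGCGCgcagccgc
Copg2 promoter: gcccactgCCGCACGGGGGCGTggccagaa
Grb10 promoter: agacttcgCCACACGGGGTCGCtgcgtgcg
Commd1 and Zrsr1: atgctcagCCCTGAGCCGGGGCaggcttgt
Dio3 promoter: cggctctcCCACTAGGGGTAGCtgttgcct
Asb4 promoter: tctgattcCCTCCAGAGGACGGtctgtgtg

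Promoter peaks were found at 12 of the 53 imprinted genes, and these were H13, Gnas, Asb4, Mest, Copg2, Ube3a, Cd81, Grb10, Commd1, Zrsr1, Dio3 and Impact. That share of 22.6% (95% Wilson interval 13.5 to 35.5) stood beside 8.28% of all genes. Gene body peaks were found at 14 imprinted genes, 26.4% (16.4 to 39.6), beside 9.88% of all genes. A peak within 40 kb of a TSS was present for 24, 45.3% (32.7 to 58.5), beside 35.8% of all genes, and the interval contained the value for all genes. In total, 25 imprinted genes had a peak by at least 1 criterion and 28 had none. That share of 47.2% (34.4 to 60.3) stood beside 36.6% of all genes, a value inside the interval. Intervals here and below cover counting error only.

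Restricted to protein-coding genes, the same shares lay closer together. There, 12 of 48 imprinted genes had a promoter peak, 25% (14.9 to 38.8), beside 12.0% of all 22367 protein-coding genes. For gene bodies the values were 14 of 48, 29.2% (18.2 to 43.2), and 15.0%, and within 40 kb they were 23 of 48, 47.9% (34.5 to 61.7), and 42.9%. The imprinted genes were also longer, with a median of 26530 bp against 5384 bp for all genes. Among genes at least as long as that median, 9 of 27 imprinted genes had a gene body peak, 33.3% (18.6 to 52.2), beside 23.8% of 8777 genes, and 7 had a promoter peak, 25.9% (13.2 to 44.7), beside 14.3%. In that long class the share within 40 kb was 33.3% (18.6 to 52.2) for imprinted genes and 39.5% for all genes. The order was the opposite there, although the interval contained the value for all genes. No test was made of any of these shares, because the genes were chosen with earlier results of these data known.

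**Figure D1:**
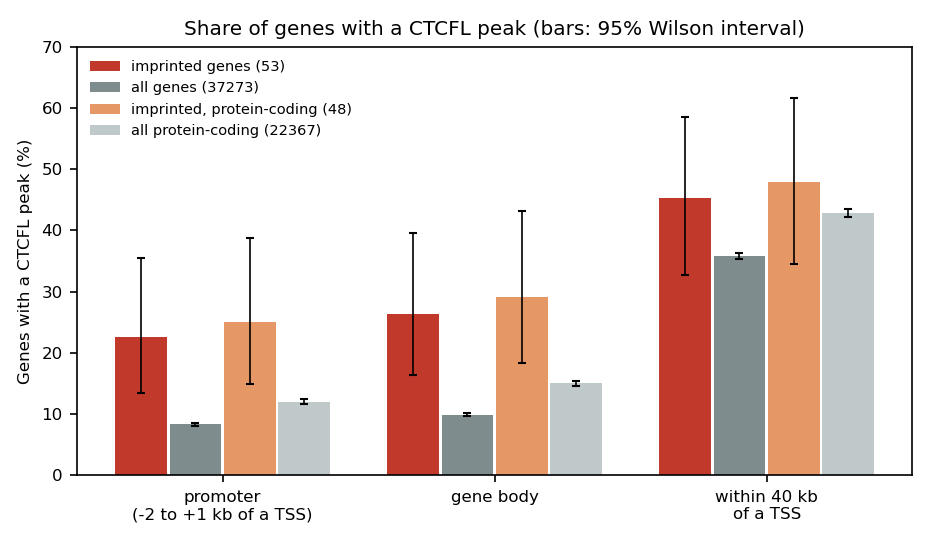
Percentage of genes (vertical axis) with a CTCFL peak in the promoter interval, in the gene body or within 40 kb of a TSS, for imprinted genes, all genes, and the protein-coding genes of each, with 95% Wilson intervals as error bars. The imprinted genes stood at 22.6%, 26.4% and 45.3%, and all genes at 8.28%, 9.88% and 35.8%, with the smallest relative difference within 40 kb.

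The H19 and Igf2 genes, the best known imprinted pair, had no CTCFL peak at their starts or in their bodies. H19 encodes a maternally expressed non-coding RNA and Igf2 a paternally expressed growth factor. The nearest peak to H19 lay 38400 bp downstream of its closest TSS, in an intron of Mrpl23, a mitochondrial ribosomal protein gene. The same peak was the nearest to Igf2, 119328 bp away. Within 300 kb of the H19 start, 6 peaks were listed, and all 6 lay on the downstream side, 40005 to 159718 bp from the 5′ end of H19. From the peak in Mrpl23 to the next peak in the direction of Igf2, which lay in Ascl2, 429.7 kb held no peak.

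The 5 kb upstream of H19, where the CTCF-bound control region lies, were searched directly. No CTCFL peak was listed there. All 36-base windows in it occurred once in the genome, so reads of the length used could be placed in it. No consensus match with up to 1 mismatch was found there. Most genes had none in their 5 kb either, and 18.4% of all genes had at least 1. With positions 6, 13 and 14 of the consensus left free, written CCNNNNGGNGGCNN, 5 matches appeared, at 108, 2173, 2628, 3654 and 3898 bp upstream of the 5′ end. As many were present at 453 genes, 1.22% of all, and at least 1 at 49.4%. Both strands were searched in every case.

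The 4 distal sites are shown because they carried the same departures from the consensus. They lie at chr7:149766206-149766235, chr7:149766661-149766690, chr7:149767687-149767716 and chr7:149767931-149767960, all on the minus strand, which is the strand of H19. Each held G13A and C14G, and position 6 was A6T in the sites at 2173 and 3898 bp and A6C in those at 2628 and 3654 bp.
H19 upstream 2173: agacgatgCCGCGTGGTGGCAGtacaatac
H19 upstream 2628: ggatgctaCCGCGCGGTGGCAGcatactcc
H19 upstream 3654: cagggttgCCGCACGGCGGCAGtgaagtct
H19 upstream 3898: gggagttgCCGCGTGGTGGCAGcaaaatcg

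The letters shared by the 4 sites, CCGCNNGGNGGCAG with 11 fixed positions, were then looked up elsewhere, a search chosen after the values were seen. They were present in 57 of the 7436 CTCFL peaks, 0.767% (0.592 to 0.992), and in 2 of the 14872 flanking windows, 0.0134%. Sites with these letters lay inside some CTCFL peaks, although none of the 4 upstream of H19 did. Among all genes, 94 had at least 1 copy in their 5 kb upstream, 0.252%. Only H19 and Mir675, a microRNA gene inside H19, had 4 or more, which for H19 follows from how the letters were chosen. The single peak at an imprinted gene with these letters was the one at the start of Commd1, at chr11:22882261-22882290 (minus strand), which carried A6G, G13A and C14G.
Commd1 start: gagctcagCCGCTGGGCGGCAGgccctcct

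The rest of the H19 domain reached from Ascl2 to Phlda2 and held 4 further peaks. Ascl2, a transcription factor of trophoblast, had a 540 bp peak centered 1001 bp downstream of its TSS in an exon, 1 bp beyond the promoter interval. A second peak 38973 bp upstream of Ascl2 lay in the promoter interval of Gm15024. Cd81, which encodes a tetraspanin membrane protein, had a 284 bp peak 388 bp downstream of its closest TSS, also in the promoter interval of R74862. This peak lay 16067 bp upstream of Tssc4 and 54072 bp upstream of Kcnq1, a potassium channel gene. The peak in an intron of Slc22a18, a transporter gene, lay 5576 bp from its closest TSS. It was also within 40 kb of Cdkn1c, which encodes an inhibitor of cyclin-dependent kinases, 19627 bp upstream, and of Phlda2, a gene that restrains placental growth, 21864 bp downstream of its start.

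Kcnq1ot1, the non-coding RNA that controls the Kcnq1 side of this domain, and Peg13 were the listed genes not found in the annotation. The start of Kcnq1ot1 was placed by an exact match of its RefSeq start sequence to mm9, at chr7:150482403-150482702 on the minus strand. No peak lay within 40 kb of it. The nearest was the one in Slc22a18, 184130 bp upstream.

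Mest and Copg2 lie next to each other in opposite orientation, and both had promoter peaks. Mest, a paternally expressed gene for a protein of the hydrolase fold, had the widest peak of all 30, with 707 bp at chr6:30686780-30687486, and it ranked 603 by width among the 7436 peaks. It lay 917 bp upstream of an internal TSS of Mest and 13586 bp downstream of the most 5′ start. Copg2, which encodes a subunit of the coatomer, had a 545 bp peak that spanned its TSS. The center of this peak was 117 bp from that TSS and 12 bp from a start of 4930412F09Rik, so it could belong to either by position. A second Copg2 peak, in an intron 91470 bp from the closest Copg2 TSS, was the single peak at an imprinted gene with fewer than 90% unique 36-base windows (83.4%).

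At the Gnas locus, which encodes the stimulatory G protein alpha subunit from several alternative promoters, 1 peak was found. It lay at chr2:174121428-174121911, 1691 bp upstream of an internal Gnas TSS, 11848 bp downstream of the most 5′ of 16 annotated starts, and overlapped an annotated exon of Gnas. It also fell in the promoter interval of Nespas, an antisense transcript at the locus, whose closest start was 732 bp away. The peak cannot be assigned to either transcript from its position.

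Peg3, a paternally expressed zinc finger gene, had no promoter peak but a 506 bp peak in an intron, 2988 bp downstream of its TSS at chr7:6679890-6680395. This was the nearest peak for Zim1 as well, at 30981 bp, while Usp29, on the other side, had none within 113124 bp. Ube3a, which encodes a ubiquitin ligase, had a 507 bp peak over its TSS and a second one 17025 bp into the gene. Snrpn, the paternally expressed neighbour of Ube3a with a role in splicing, had none, and its nearest peak lay 142580 bp downstream of a start, in the promoter interval of SNORD116. That peak had 35.4% unique 36-base windows, far below the peaks at the imprinted genes. The start of Snrpn itself was the least unique of the 53, with 81.5% of windows found once.

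Grb10, an adaptor that restrains growth factor signaling, had a 587 bp peak in an exon at chr11:11925614-11926200, 420 bp downstream of an internal TSS and 12779 bp from its most 5′ start. A second Grb10 peak lay in an intron 57970 bp from the most 5′ start and was the nearest to Ddc, 82669 bp away. In the domain from Dlk1 to Dio3, peaks were found only at the outer ends. Dlk1, which encodes a membrane protein of the Notch ligand family, had a peak 14968 bp upstream. Dio3, whose enzyme inactivates thyroid hormone, had a 183 bp peak 915 bp upstream of its closest TSS, which ranked 7423 by width and also lay in the promoter intervals of Dio3os and Mir1247. Between them 840.0 kb held no peak, and the starts of Dlk1, Meg3, Rtl1, Rian and Mirg lay in that stretch, with Meg3, a maternally expressed non-coding RNA, 103146 bp from the nearest peak.

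Retrogenes that lie within a host gene allowed host and insert to be compared. H13, a signal peptide peptidase gene, had a 581 bp peak over its TSS, whereas Mcts2, which lies inside H13, had none nearer than 8716 bp. Commd1, a regulator of copper handling and NF-kappaB, had 1 peak over its start and a second one near an internal TSS, 970 bp from it. That second peak lay 1326 bp upstream of Zrsr1, the splicing-factor-like gene inside Commd1, and could belong to either by position. Blcap and Nnat, a nested pair, had no promoter peak, and the nearest peak lay 33819 bp upstream of Blcap. Nap1l5 and its host Herc3 had none within 576566 bp. Starts of Mcts2, Nap1l5, Zrsr1 and Nnat had ratios of observed to expected CpG of 0.955, 0.702, 0.743 and 0.866, all above the median of all genes of 0.330.

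Kcnk9, a potassium channel gene, had a peak 3291 bp upstream of its TSS and a second one in an intron, 29156 bp downstream of it. Trappc9, a subunit gene of a vesicle-tethering complex, had 2 intronic peaks, 160414 and 245550 bp from its closest TSS, and none within 40 kb of a start. Peg13, a listed gene inside Trappc9, was not placed, so whether either peak lay at its start is unknown. Asb4, an ankyrin repeat gene, had the single peak of its domain, 618 bp upstream of its TSS.

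Impact, a paternally expressed regulator of translation, had 3 peaks. One was 152 bp downstream of its TSS, and the others were 16933 and 23029 bp upstream. Their widths were 258, 234 and 542 bp, and their best consensus matches had 3, 3 and 2 mismatches.

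**Figure D2:**
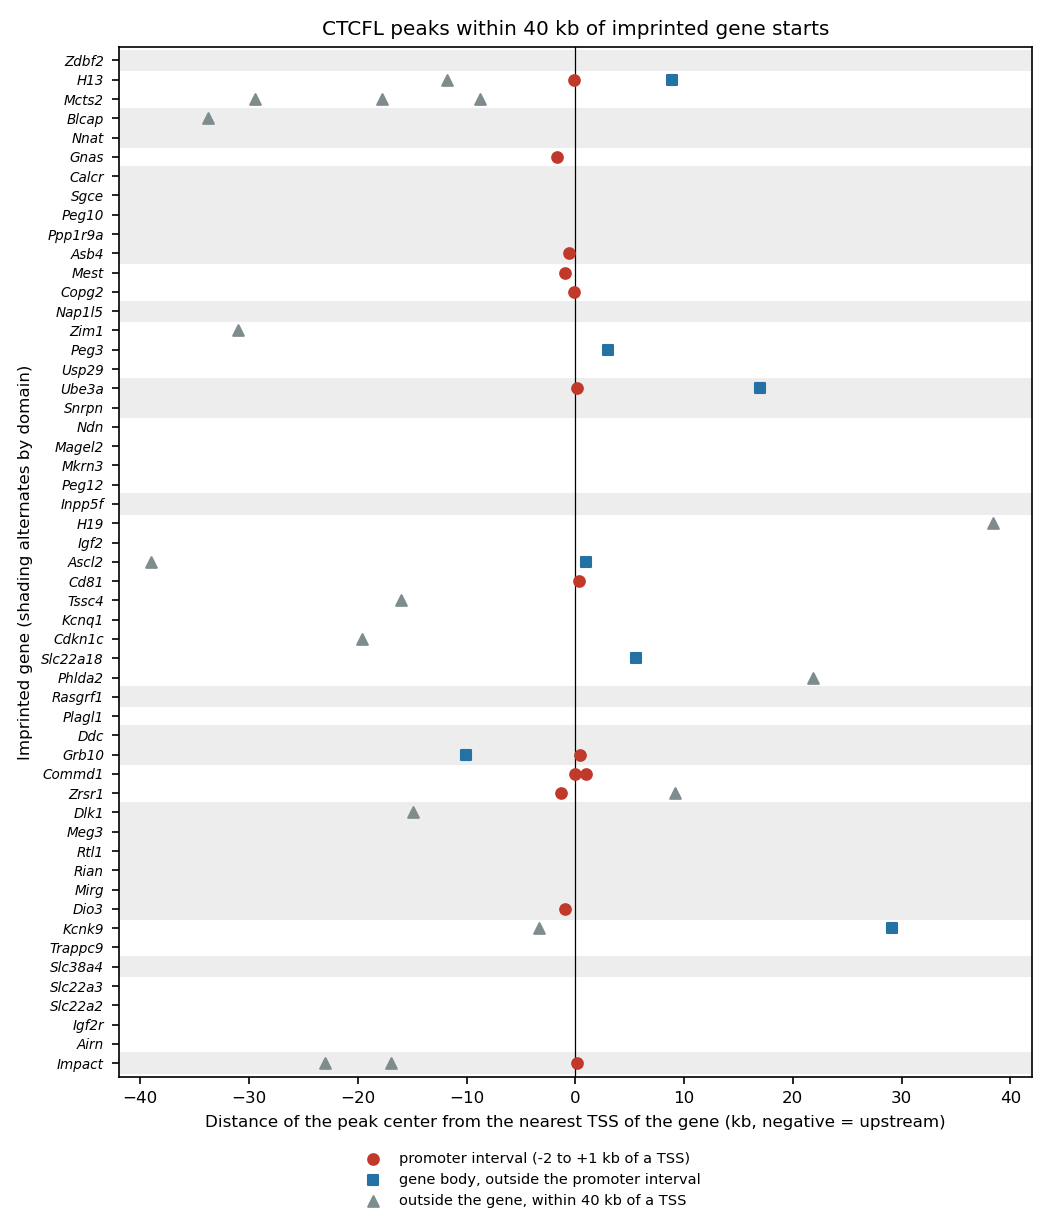
Distance in kb of each CTCFL peak center from the nearest TSS of the imprinted gene on that row (horizontal axis, negative is upstream), for all 53 genes in genome order with domains shaded in turn. Promoter peaks (circles) gather around 0 at 12 genes, whereas the rows of Igf2, Igf2r, Airn, Snrpn, Meg3 and Rasgrf1 are empty, and the Trappc9 peaks and the intronic Copg2 peak lie beyond 40 kb.

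No imprinted gene had a peak in 8 of the 21 domains, which were those of Zdbf2, Nap1l5, Ndn with Magel2, Mkrn3 and Peg12, Inpp5f, Rasgrf1, Plagl1, Slc38a4, and Igf2r with Airn, Slc22a2 and Slc22a3. Igf2r encodes a receptor that clears Igf2, and Airn is the paternal non-coding RNA that silences it. The nearest peak was 333589 bp from an Igf2r start and 373621 bp from an Airn start. Their domain with 40 kb on either side spanned 520.2 kb and held no peak, which at a count of 0 allows up to 7.09 peaks per Mb (95% exact Poisson limit). Rasgrf1, a guanine nucleotide exchange factor gene, had its nearest peak 82490 bp upstream. Another peak, at chr9:89949037-89949579, lay beyond the end of Rasgrf1 in the 40 kb beside its domain and met none of the criteria. The genes farthest from a peak were Ndn at 1098826 bp, Magel2 at 1070124 bp, Mkrn3 at 1026950 bp and Peg12 at 982593 bp, which lie side by side in a stretch of 3584 kb without a peak that also held a Snrpn start.

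Long stretches without a peak were counted across the genome for comparison. Of 7415 intervals between neighbouring peaks, 627 were longer than 1 Mb and held the starts of 32.4% of all genes. For imprinted genes, 5 such intervals held the starts of 12, or 22.6%. The next longest after that of Ndn were 2648 kb around Nap1l5 and 2181 kb around Calcr, Sgce, Peg10 and Ppp1r9a. The median distance from a TSS to the nearest peak was 68314 bp for imprinted genes, 83387 bp for all genes and 57822 bp for protein-coding genes.

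Over all domains with 40 kb on either side, 32 peaks lay in 8.31 Mb, or 3.85 per Mb (2.63 to 5.44), beside 2.91 per Mb in the genome, a value inside the interval. Inside gene bodies there were 5.74 peaks per Mb for imprinted genes (3.4 to 9.07) and 4.04 for all genes. The domains were uneven. The highest densities were at Impact with 29.8 per Mb, at H13 and Mcts2 with 25.2 and at Mest and Copg2 with 14.8, each from 3 peaks in a short domain. The lowest above 0 was in the Calcr to Asb4 domain, with 1 peak in 1827 kb, or 0.547 per Mb.

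**Figure D3:**
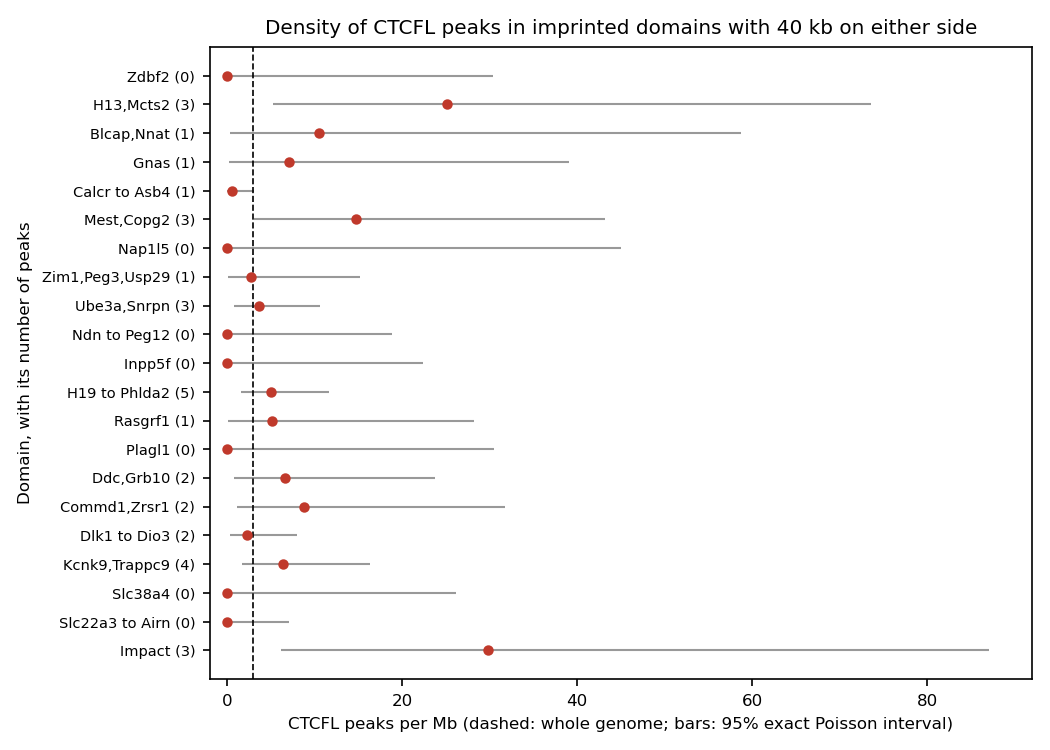
CTCFL peaks per Mb (horizontal axis) in each of the 21 imprinted domains with 40 kb on either side, with the number of peaks in brackets, 95% exact Poisson intervals as bars and the genome value of 2.91 per Mb as a dashed line. The intervals of Impact, H13 with Mcts2 and Mest with Copg2 lie to the right of the line, and those of the other 18 domains contain it.

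Genes were grouped by the expressed allele assigned to them in the lists, and allelic expression was not measured in these ES cells. By this grouping, 15 of 25 maternally expressed genes had a peak within 40 kb, 60.0% (40.7 to 76.6). Of the 24 listed as paternally expressed, 7 did, 29.2% (14.9 to 49.2). The intervals overlapped, and the value of 35.8% for all genes lay below the maternal interval and inside the paternal one. The value of 42.9% for protein-coding genes lay inside both intervals. Promoter peaks were at 6 maternal genes (H13, Asb4, Copg2, Ube3a, Cd81 and Commd1) and 4 paternal genes (Mest, Zrsr1, Dio3 and Impact), 24% (11.5 to 43.4) and 16.7% (6.68 to 35.9) beside 8.28% of all genes. Gene body peaks were at 9 and 3, 36% (20.2 to 55.5) and 12.5% (4.34 to 31) beside 9.88%, a value inside the paternal interval. Among protein-coding genes, 12.0% had a promoter peak, a value inside both promoter intervals. Their share with a gene body peak, 15.0%, lay below the maternal interval and inside the paternal one. The intervals treat neighbouring genes as independent, which they are not. The maternally expressed genes were longer, with a median of 39210 bp against 12173 bp. The maternal ones with a peak included 7 from the H19 domain, which held 5 peaks. The paternal ones without a peak included the 4 neighbours of the Ndn domain. The part of length and of shared domains in this difference was not tested. Of the 4 genes listed apart because the expressed allele differs by transcript or tissue, Gnas and Grb10 had promoter peaks. Inpp5f and Ddc had no peak. Genes in the other classes were not checked for such differences. None of the 5 annotated non-coding RNAs (H19, Airn, Meg3, Rian and Mirg) had a promoter or gene body peak, and only H19 had one within 40 kb. With 5 genes the interval of a share of 0 reached 43.4%, which contained the 8.28% and 9.88% of all genes, so no difference was detectable at this number.

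A further list of 30 imprinted genes outside the 53 was counted in the same way. Of these, 27 symbols were found, as 28 annotated genes. Promoter peaks were at Gab1, Nespas, Osbpl5 and Qpct, 14.3% (5.70 to 31.5) beside 8.28% of all genes, gene body peaks at 5, 17.9% (7.88 to 35.6) beside 9.88%, and a peak within 40 kb at 10, 35.7% (20.7 to 54.2), beside 35.8%. Each interval contained the value for all genes. All entries but Nespas were protein-coding, and the intervals also contained the values for protein-coding genes, 12.0%, 15.0% and 42.9%. This list is not independent of the 53 genes. The Nespas peak is the one at Gnas, and the peak 2309 bp from a Tspan32 start was also counted for Ascl2.

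CpG content at the start was compared between imprinted genes with and without a promoter peak. Within 500 bp of the 5′ end, the median ratio of observed to expected CpG was 0.633 for imprinted genes, 0.330 for all genes and 0.549 for protein-coding genes. For the 12 imprinted genes with a promoter peak it was 0.732, beside 0.707 for all 3087 genes with one. For the 41 without a promoter peak it was 0.631, beside 0.301 for all genes and 0.495 for protein-coding genes without one. Zdbf2, with the highest ratio of 0.981, and Igf2r, with 0.903, had no peak by any criterion, whereas the most 5′ start of Mest, with 0.204, was the lowest among genes with a promoter peak. The promoter peaks of Mest, Gnas and Grb10 lay at internal starts, 14503, 13539 and 12359 bp from the 5′ end. For these genes the ratio does not describe the start near the peak. At the starts of 51 of the 53 imprinted genes more than 90% of 36-base windows were unique, and the exceptions were Snrpn and Meg3 (85.6%).

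**Figure D4:**
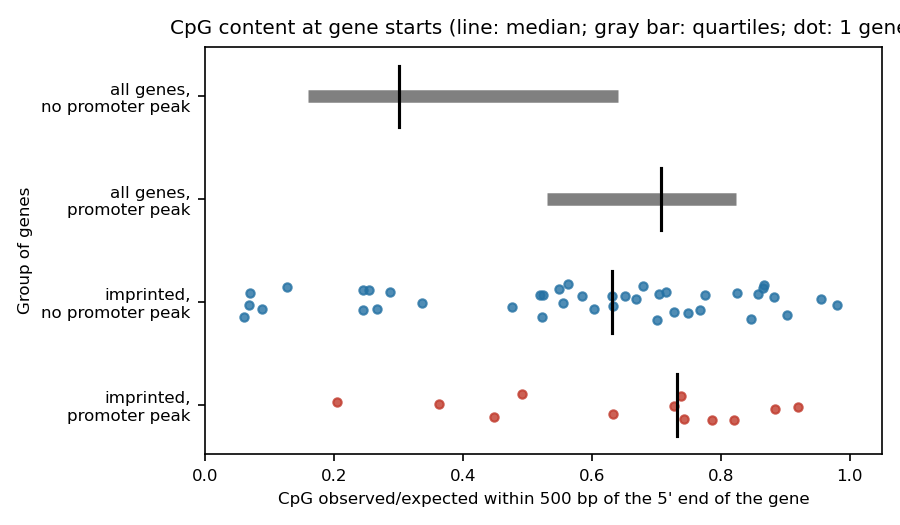
Ratio of observed to expected CpG within 500 bp of the 5′ end of the gene (horizontal axis), with 1 dot for each imprinted gene, a gray bar from the lower to the upper quartile for all genes, and a black line at each median. Imprinted genes without a promoter peak spread from 0.0606 to 0.981 with a median of 0.631, beside 0.301 for all genes without one and, not drawn, 0.495 for protein-coding genes without one.

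The 30 peaks at imprinted genes were set beside the whole list by width, sequence and position. Their median width was 467.5 bp, from 183 to 707 bp, beside 454 bp for all peaks. A consensus match with up to 1 mismatch was present in 11 of 30, 36.7% (21.9 to 54.5), beside 43.9% of all peaks and 2.17% of the flanking windows. Matches without a mismatch were in 5 of 30, 16.7%, beside 12.8%. Of the 12 promoter peaks at imprinted genes, 3 held a match with up to 1 mismatch, 25% (8.89 to 53.2), and 4 spanned a TSS, those of H13, Copg2, Ube3a and Commd1. By position, 13 of the 30 lay in a promoter interval of some annotated gene, 43.3% (27.4 to 60.8) beside 36.7% of all peaks, 10 in an intron, 33.3% beside 26.2%, 6 between genes, 20% beside 31.3%, and 1 in an exon. For each share of the 30 peaks the interval contained the value for all peaks. The shares of the 12 promoter peaks had no such value beside them. The rule that chose the 30 shaped the shares by position. A peak between genes could enter only within 40 kb of a TSS of an imprinted gene, whereas the whole list had no such limit.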

How the data were processed

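ChIP-seq was performed by the authors in 1 library for each of 3 conditions. Reads of 36 bp were aligned to mm9, and the non-induced cells were the control. The methods name ELAND and BOWTIE for alignment and MACS for peaks, but which of these settings made the deposited list is not given in the sources used here. The deposited list, an export from the authors' genome browser, holds only a chromosome, a start and an end for each of 7436 peaks (other unit, with no score, signal or p-value). Its starts count from 0 and were raised by 1. The CTCF and non-induced libraries were not analysed here. The depth is unknown, so counts limit the precision.

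Peaks were assigned by their centers to genes of the GENCODE annotation on NCBIM37, with the intervals given above (Python 3.11.15, pandas 2.3.3, pysam 0.24.0, scipy 1.17.1). Shares have 95% Wilson intervals and densities 95% exact Poisson intervals. A 36-base window was called unique when neither it nor its reverse complement occurred anywhere else. The RefSeq start sequences used for placing genes are those on GRCm38.p6, and 44 of 53 members had one. Sequences are shown with 8 bases on either side, where 10 had been planned, and 1 planned sequence is not reported here. Scripts were tested on simulated data. The imprinted genes and the other lists were chosen with earlier results of these data known, so no test was made. The genes named in full were those with a promoter or a gene body peak and those at well-known control regions. The H19-site letters, the intervals between peaks and the sites at 2 mismatches were looked at after the data were seen. Alternatives were other peak sets, promoter intervals, distances, start sets, gene classes, domain limits and motif settings.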

Additional observations from a re-analysis of the deposited data

How the results depend on the processing

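Of 46 alternatives for 8 results, 37 left the value within its interval or within 1.5 times the count, and 9 moved it. In all 22 alternatives for the 3 shares, the imprinted genes stood above all genes, by the least within 100 kb, 56.6% beside 53.8%. Outside these alternatives the order within 40 kb was not kept: it was reversed among genes at least as long as the median imprinted gene, 33.3% beside 39.5%, and the further list of imprinted genes had 35.7% beside 35.8%. In both cases the interval contained the value for all genes. When the narrower peaks, below the median width of the list, were dropped, promoter peaks were at 13.2% of imprinted genes (5.47% of all genes). Peaks within 40 kb were at 32.1% (23.2%), and 17 of the 3719 peaks kept were at imprinted genes. The domains held 2.17 peaks per Mb (1.45 in the genome). The median width was 524 bp beside 571 bp for all peaks kept, whereas in the full list it was 467.5 bp beside 454 bp. These changes follow in part from removing close to 50% of the list. A promoter interval of 500 bp on either side gave 13.2%, beside 5.82% of all genes. For the consensus, no mismatch gave 16.7% of the 30 peaks, 2 mismatches 76.7% (76.7% of all peaks), and free positions 6, 13 and 14 gave 56.7% (45.8%). Among alternatives that stayed within the interval, the most 5′ start alone gave promoter peaks at 17.0% of imprinted genes (7.03%), and gene bodies without the promoter interval 17.0% (6.14%). Leaving out peaks under 90% unique removed 1 of the 30. No paired analysis was possible because there was a single library per condition, and no replicate could be left out. Each domain holds few peaks, so the density of a single domain rests on 0 to 5 peaks. The list gives no read numbers, so weak binding below the authors' threshold, including that upstream of H19, was not detectable here.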
